A study of Mus musculus with 12 samples.

Results

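The genes described here encode pore-forming subunits of voltage-gated ion channels: 4 sodium channels (Scn1a, Scn2a, Scn3a, Scn8a), 8 calcium channels (Cacna1a, Cacna1b, Cacna1c, Cacna1d, Cacna1e, Cacna1g, Cacna1h, Cacna1i), 16 potassium channels of the Kcna, Kcnb, Kcnc, Kcnd, Kcnh, Kcnq and Kcnma families, and the pacemaker channel gene Hcn2. They were found by matching the Ensembl identifiers of the count tables to symbols. The rule that picks these 29 genes from 41388 identifiers uses names and no measured value, though it was drawn up with earlier results of these data known. All 29 were among the 13364 genes abundant enough to test. Messenger RNA was sequenced from 12 libraries in 4 groups of 3, all from mice of the C57/Bl6 strain, aged postnatal day 21, with the Aldh1L1::RPL10a-eGFP bacTRAP transgene. In such mice the Aldh1l1 promoter, active in astrocytes, drives a ribosomal protein fused to a green fluorescent protein. Translating ribosome affinity purification (TRAP) pulls the tagged ribosomes and their bound messages out of a lysate. The groups were cortex input (lysate before immunoprecipitation), cortex TRAP (its immunoprecipitate), synaptoneurosome input (a sucrose-gradient layer of cortex and hippocampus that holds pinched-off synapses with the fine processes around them) and PAP TRAP (the immunoprecipitate of that layer, PAP standing for peripheral astrocyte process). Which group a library belongs to was read from its title. The protocol text and the cell type did not separate them, being identical for inputs, immunoprecipitates and cortex libraries. On this reading the synaptoneurosome-layer groups differed from the cortex groups in brain region as well as in fraction. Region and fraction cannot be told apart. All groups shared the transgene, the treatment with cycloheximide at 1 ug/mL, which holds ribosomes on their messages, and with the sodium channel blocker TTX at 1 mM. The labels do not say whether the 3 libraries of a group came from separate animals, so p-values measure only the spread between these libraries, which may be technical.

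Voltage-gated channels open when the membrane potential changes. In neurons, sodium channels carry the upstroke of the action potential, potassium channels repolarize the membrane and set firing rate, and calcium channels couple depolarization to transmitter release and to signalling in dendrites. Astrocytes do not fire action potentials, and their membrane conductance is known to rest mainly on inward-rectifier and tandem-pore potassium channels such as Kcnj10. An astrocyte's fine processes wrap synapses, so a synaptoneurosome layer holds material of both cell types.

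Gene counts per library lay between 4918113 and 17553985. Between 1.03% and 91.9% of them fell on the 37 genes of the mitochondrial chromosome, so nuclear genes were left with 1423296 to 7777763 counts, fewest in synaptoneurosome input. The 29 channel genes had 2 to 9439 counts each in a library. Aldh1l1, whose promoter drives the tag, had a mean of 7.44 normalized CPM (counts scaled to library size) in cortex input, 82.1 in cortex TRAP, then 10.6 in the synaptoneurosome input and 28.4 in PAP TRAP. It was 3.46 ± 0.46 (log2, ± SE) higher in cortex TRAP than in cortex input (adjusted p = 7.1e-06, edgeR). The Aldh1l1 change in PAP TRAP against synaptoneurosome input was 1.44 ± 0.44 and missed the threshold (adjusted p = 0.069, edgeR).

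For 3 of the sodium channel genes the sequence shown first is the stretch that lines the outer pore in the first repeat of the protein, since the samples had been treated with TTX. TTX binds there, and an aromatic residue, whose codon is in capitals (phenylalanine TTC or tyrosine TAC), is part of its site. Each stretch is 24 bases of the coding strand, 5′ to 3′, from the transcript with the longest open reading frame in GENCODE M21.
Scn2a: actcaagacTTCtgggaaaacctt
Scn3a: actcaagacTACtgggagaacctt
Scn8a: actcaggacTACtgggagaactta
The aromatic codon was TTC in Scn2a and TAC in Scn3a and Scn8a. Scn3a differed from Scn2a at 2 of the 24 bases and Scn8a at 5.

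Potassium channel genes and Hcn2 are shown by the selectivity filter, the narrowest part of the pore. Its glycine-tyrosine-glycine codons (glycine-phenylalanine-glycine in the Kcnh genes) are in capitals.
Kcna1: tccatgaccactgtgGGATACGGT
Kcna2: tccatgacaactgtaGGCTATGGA
Kcna4: accatgacaactgtgGGCTATGGG
Kcna6: acaatgaccacggtaGGTTATGGG
Kcnb2: accatgaccactgtgGGCTACGGT
Kcnd2: accatgacaacactgGGGTATGGC
Kcnh7: agtctaaccagtgtaGGATTTGGA
Kcnq3: acactggccaccattGGTTATGGA
Kcnma1: acaatgtctacagtgGGTTATGGG
Hcn2: cacatgctgtgcatcGGCTACGGG
Even in this most conserved stretch Kcna2 differed from its relative Kcna1 at 5 of 24 bases and Kcna4 also at 5, while Kcnq3 differed at 10 and Hcn2 at 12. Over whole transcripts, the share of a gene's stretches of 50 bases that also occurred in a transcript of another gene was at most 6.49% (Scn3a, mostly with Scn2a), except for Kcna6. In Kcna6, 38.8% were shared, all with the antisense gene Gm26673, whose exons overlap 39.6% of its exon bases. No source used here gives the strand setting of the counting. Reads of Kcna6 and Gm26673 could therefore not be told apart, and Kcna6 values are uncertain. In Cacna1a, Cacna1d, Cacna1h, Kcnd3, Kcnh3, Kcnh7, Kcnq5 and Kcnma1, exons of antisense genes overlapped between 0.0174% and 5.98% of exon bases.

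Channel messages took a smaller share of nuclear counts in cortex TRAP than in any other group. Of nuclear counts, the 29 genes took 0.716%, 0.715% and 0.699% in cortex input and 0.0909%, 0.146% and 0.147% in cortex TRAP. The share was 1.32%, 1.23% and 1.35% in the synaptoneurosome input and 0.939%, 0.636% and 0.827% in PAP TRAP. All 3 cortex TRAP libraries were lowest and all 3 synaptoneurosome inputs were highest, and only PAP TRAP library 2 fell below the cortex inputs. Of all gene counts, mitochondrial genes included, the order changed: the channel share was 0.348% to 0.395% in cortex input, 0.09% to 0.145% in cortex TRAP, 0.0993% to 0.219% in the synaptoneurosome inputs and 0.384% to 0.532% in PAP TRAP. In bulk RNA such as this, fewer cells of a type and less RNA per cell cannot be told apart.

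**Figure D1:**
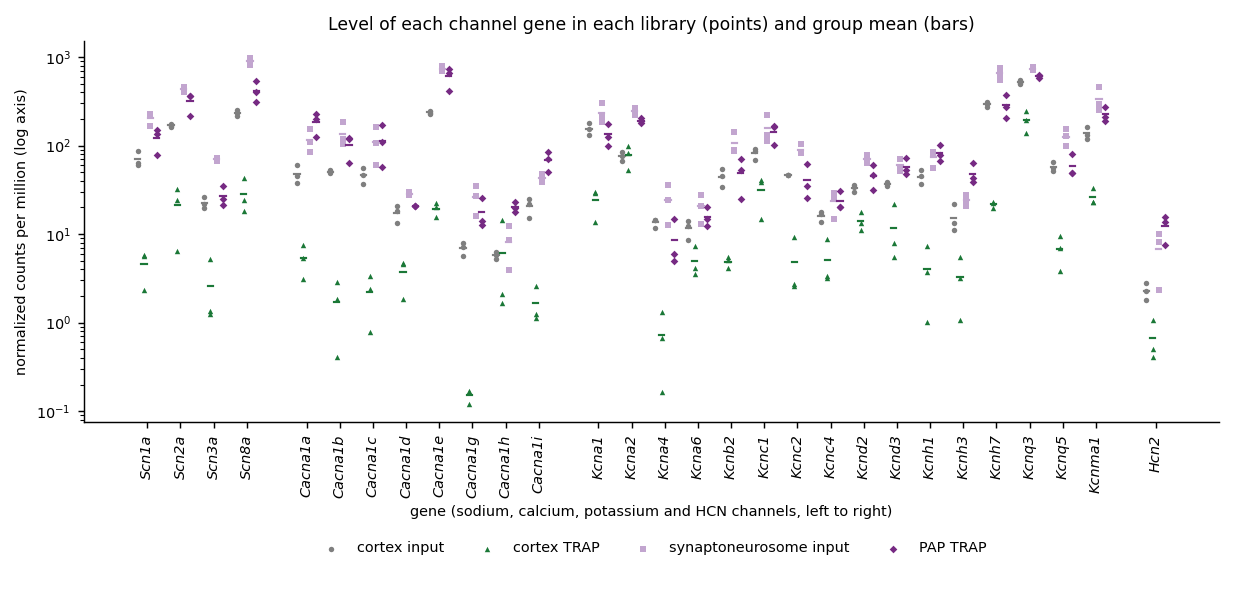
Level of each channel gene (x axis, by family) as normalized CPM on a log axis, with 3 points per group for the libraries and a bar for the mean. Cortex TRAP (green triangles) is the lowest group for nearly every gene, with Kcna2 and Cacna1h as exceptions.

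In cortex TRAP against cortex input, 26 of the 29 channel genes fell and 0 rose by the edgeR quasi-likelihood test at an adjusted p of 0.05. Over all 13364 genes tested, 19.5% fell and 15.9% rose. Without adjustment, 27 of the 29 had a p under 0.05 on the lower side (23.4% of all genes) and 0 on the higher, and DESeq2 called 27 lower (19.8%) and 0 higher. The median log2 change of the 29 was -3.05, beside 0.05 over all genes tested. In 27 of the 29 all 3 cortex TRAP libraries lay below all 3 inputs, as was so for 27.8% of all genes. With counts corrected for transcript length, 22 fell and 1 rose, beside 16.6% and 15.7% of all genes.

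PAP TRAP against cortex TRAP gave the opposite direction: 28 of the 29 rose and 0 fell, beside 19.3% and 14.6% of all genes. The median change was 3.34, beside -0.28 over all genes, and in all 29 the PAP TRAP libraries lay above the cortex TRAP libraries, as was so for 22.2% of all genes. Unadjusted, all 29 had a p under 0.05 on the higher side (22.8% of all genes) and 0 on the lower, and DESeq2 called 29 higher (20.4%) and 0 lower. This comparison and the preceding one share the cortex TRAP libraries, so they are not independent. With the length correction 24 rose and 0 fell, beside 15% of all genes higher.

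Relative to other nuclear genes, channel messages were higher in the synaptoneurosome layer than in whole-tissue lysate. As a share of all gene counts they were lower there, where 83.8% to 91.9% of counts were mitochondrial, against 44.8% to 50.2% in cortex input. The layer also held hippocampus, so region cannot be told apart from fraction here or in PAP TRAP against cortex TRAP. In synaptoneurosome input against cortex input all 29 changes were positive with a median of 1.12 (all genes -0.14), 14 rose and 0 fell, beside 7.26% and 2.07% of all genes, and in 23 the groups stood apart upward, beside 16.4% of all genes. With no adjustment 20 had a p under 0.05, all upward (13.7% of all genes), and DESeq2 called 17 higher (12%) and 0 lower. The count of 14 dropped without any 1 of the 6 libraries compared. It was 7, 6 and 7 without cortex input libraries 1, 2 and 3, and 7, 11 and 8 without synaptoneurosome input libraries 1, 2 and 3. The median change of the 29 stayed between 1.01 and 1.26 in these fits. In the fit of these groups alone the count was 22. The calls of Scn1a, Scn8a, Cacna1e, Kcna2, Kcnh7 and Kcnma1 held with each library left out in turn, and those of the other 8 were each lost without at least 1 library.

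Against its own input, few PAP TRAP changes passed the test. In PAP TRAP against synaptoneurosome input 0 of the 29 rose and 2 fell, Scn8a and Kcnh7, beside 3% and 1.53% of all genes, and the median change was -0.43 (all genes 0.06). Without adjustment 9 had a p under 0.05 on the lower side (8.22% of all genes) and 1 (Kcnh3) on the higher (11.9%), and DESeq2 called 5 lower (4.9%) and 0 higher. All PAP TRAP libraries lay below all inputs for 13 of the 29, beside 9.39% of all genes. The difference between both enrichments over input, tested as an interaction, was higher in the synaptoneurosome layer for 20 of the 29 and lower for 0, beside 12.9% and 7.32% of all genes, with a median of 2.09 (all genes 0.03). Unadjusted, 25 had a p under 0.05 upward (18.8% of all genes) and 0 downward, and DESeq2 called 24 (14.2%) and 0. The interaction is the PAP TRAP change against input minus the cortex TRAP change against input, so it is not independent of those comparisons.

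**Figure D2:**
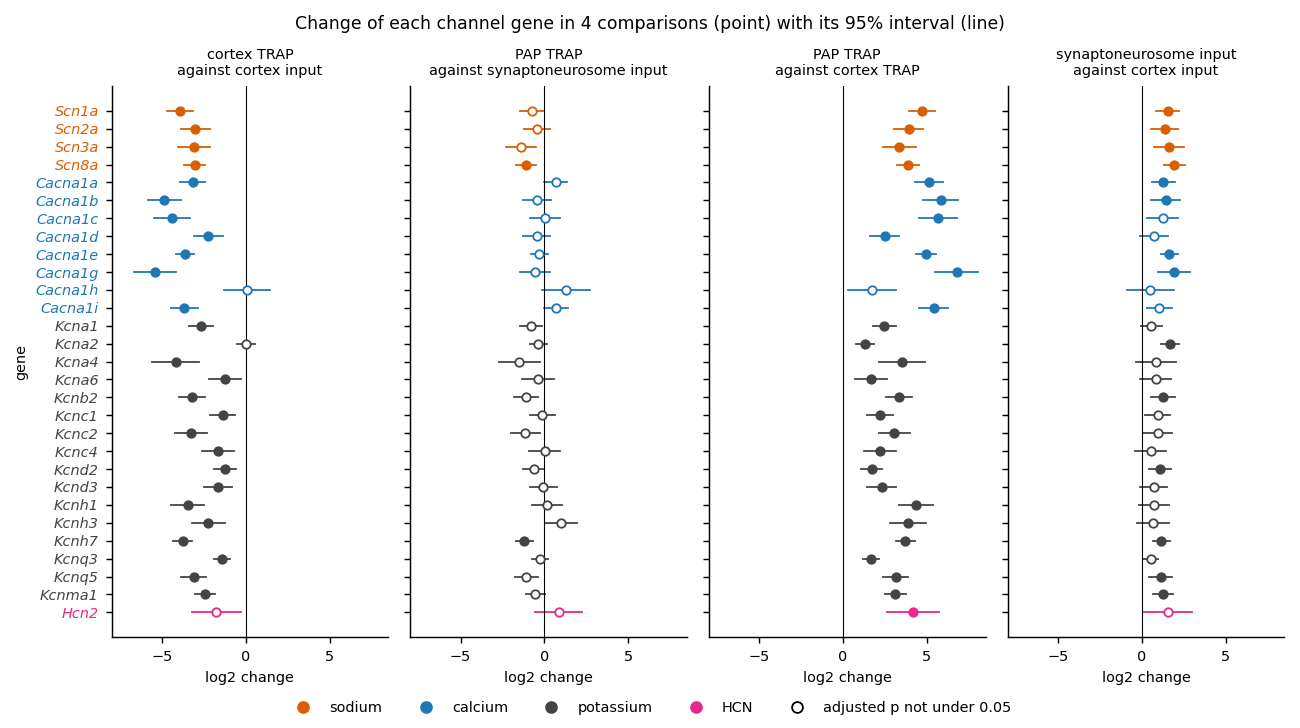
Log2 change (x axis) of each channel gene (y axis, coloured by family) in 4 comparisons, as a point with its approximate 95% interval computed from the edgeR F statistic, filled where the adjusted p was under 0.05. Changes lie mostly to the left in cortex TRAP against its input, on both sides of 0 in PAP TRAP against its input (21 negative, 8 positive), and to the right in both other panels.

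Markers of other cell types moved with several of these results. All 14 neuron markers fell in cortex TRAP against its input (median -3.01), and 12 of the 14 neuron markers rose in PAP TRAP against cortex TRAP (median 2.64), beside 19.5% and 19.3% of all genes. The neuron markers' summed share of nuclear counts ranged from 2.01% to 2.28% in cortex input, 0.245% to 0.354% in cortex TRAP, 1.30% to 1.67% in the synaptoneurosome input and 0.615% to 0.893% in PAP TRAP, and no marker of the list was at 0 in a whole group. In synaptoneurosome input against cortex input, where 14 channel genes rose and 0 fell, 1 neuron marker rose and 2 fell (median -0.18). Of the 10 interneuron markers 2 rose and 0 fell (median 0.70). Over all genes 7.26% rose and 2.07% fell. In that comparison 7 of 10 microglia markers and 12 of 15 astrocyte markers rose. The oligodendrocyte markers took 0.794% to 1.06% of nuclear counts in PAP TRAP and 0.0608% to 0.0902% in cortex TRAP, and 8 of 10 rose between these groups. Astrocyte markers, all 15 of which rose in cortex TRAP against its input (15.9% of all genes), took 7.21% to 10.4% there and 4.88% to 9.57% in PAP TRAP. In PAP TRAP against cortex TRAP 13 of the 15 fell, beside 14.6% of all genes. In the synaptoneurosome input the astrocyte markers took 4.06% to 4.89%, a range that held the share of PAP TRAP library 1 (4.88%). In PAP TRAP against its input 6 of the 15 rose and 0 fell, beside 3% and 1.53% of all genes. The part of these other cell types in the channel gene results was not tested.

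**Figure D3:**
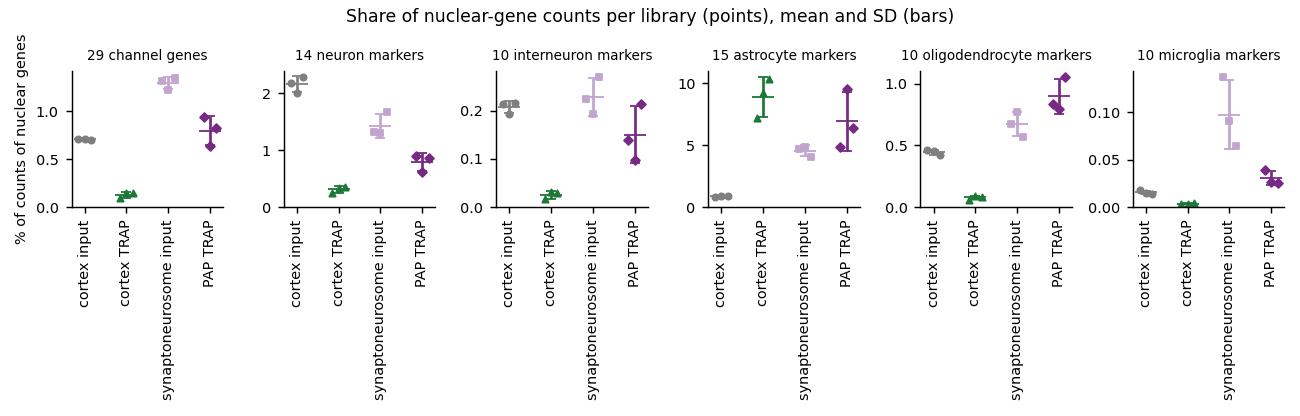
Share of nuclear-gene counts (y axis, percent) held by the channel genes and by marker lists in each library (points), with mean and SD (n = 3) for each group (x axis). Channel genes were highest in synaptoneurosome input, while neuron markers were highest in cortex input.

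PAP TRAP library 2 stood apart within its group, and rows naming no gene held 52.9% of its counts, against 35.6% and 35.7% in libraries 1 and 3. It was the lowest of its 3 libraries for 20 of the 29 channel genes and the highest for 1, its channel share was 0.636% against 0.939% and 0.827%, and its astrocyte marker share was 9.57% against 4.88% and 6.36%. Without it 28 channel genes rose in PAP TRAP against cortex TRAP, as with it, and 1, Kcnh7, fell in PAP TRAP against its input in place of 2.

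Sodium channel genes moved together. Scn1a is the main sodium channel of fast-spiking interneurons, Scn2a and Scn8a act at the axon initial segment of excitatory cells, and Scn3a is most abundant in the immature brain. All 4 fell in cortex TRAP against its input, beside 19.5% of all genes. All 4 rose both in PAP TRAP against cortex TRAP and in synaptoneurosome input against cortex input, beside 19.3% and 7.26% of all genes. The Scn2a and Scn3a rises in synaptoneurosome input were each lost without any 1 of the 6 libraries compared (adjusted p 0.0502 to 0.113) and with the length correction. Scn8a (ENSMUSG00000023033, chromosome 15, 100869858 to 101045938 on the plus strand in GENCODE M21, GRCm38) had 236, 218 and 252 CPM in cortex input and 18.1, 43.2 and 24.2 in cortex TRAP. In synaptoneurosome input it had 905, 820 and 973 CPM, and in PAP TRAP 537, 311 and 398. None of the 4 groups overlapped for Scn8a, with synaptoneurosome input highest and cortex TRAP lowest. Scn8a was 3.05 ± 0.31 (log2) lower in cortex TRAP than in its input, an 8.28-fold difference (95% interval 5.31 to 12.9, adjusted p = 2.7e-07, edgeR). It was 1.93 ± 0.29 higher in synaptoneurosome input than in cortex input (adjusted p = 0.00027). Scn8a fell in PAP TRAP against its input by 1.11 ± 0.29 (2.16-fold, adjusted p = 0.031), a call that was lost without any 1 of 6 libraries: cortex input 2, any synaptoneurosome input, or PAP TRAP 2 or 3 (adjusted p between 0.052 and 0.12).

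Scn2a had 164, 176 and 165 CPM in cortex input, 6.51, 32.4 and 24.4 in cortex TRAP, then 444, 399 and 462 in the synaptoneurosome input and 367, 218 and 366 in PAP TRAP. Its cortex TRAP libraries spread widely, and even the highest of them lay below every other library. Scn2a fell by 2.999 ± 0.40 in cortex TRAP (adjusted p = 8.5e-06) and the PAP TRAP change against input was -0.46 ± 0.37 (adjusted p = 0.54). Scn1a fell by 3.94 ± 0.36, from 70.4 ± 14.4 CPM (SD, n = 3) to 4.55 ± 1.94, and reached 205 ± 31.4 in the synaptoneurosome input and 121 ± 37.7 in PAP TRAP. Scn3a, the lowest of the 4 per kilobase of exon in every group, had 22.7 ± 3.52, 2.62 ± 2.29, 70.1 ± 2.57 and 26.9 ± 7.15 CPM in both cortex groups (input, TRAP) and both synaptoneurosome-layer groups (input, TRAP). Its PAP TRAP change against input was -1.38 ± 0.43 (adjusted p = 0.07).

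Among calcium channel genes the falls in cortex TRAP were on the median larger than among sodium and potassium channel genes, at -3.63 against -3.07 and -2.32 (log2), a difference between families that was not tested. Cacna1a and Cacna1b encode the P/Q-type and N-type channels that trigger transmitter release, Cacna1c and Cacna1d the L-type channels, Cacna1e the R-type channel, and Cacna1g, Cacna1h and Cacna1i the low-voltage-activated T-type channels. In this family 7 of 8 fell in cortex TRAP against its input, beside 19.5% of all genes. In PAP TRAP against cortex TRAP 7 of 8 rose, beside 19.3% of all genes. In synaptoneurosome input against cortex input 4 of 8 rose, beside 7.26% of all genes. None passed the test in PAP TRAP against its input, where 4 changes were positive and 4 negative, and in which edgeR gave 0 unadjusted p under 0.05 and DESeq2 0 calls.

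Cacna1e (ENSMUSG00000004110, chromosome 1, 154390731 to 154884501, minus strand) had the highest mean CPM per kilobase of exon of the 8 in each of the 4 groups. On that scale its libraries overlapped those of Cacna1a and Cacna1h in cortex TRAP and those of Cacna1a in PAP TRAP. Cacna1e had 228, 236 and 248 CPM in cortex input and 20.3, 15.7 and 22.2 in cortex TRAP. In synaptoneurosome input it had 751, 688 and 784 CPM, and in PAP TRAP 666, 409 and 733. Cortex TRAP stood far below all others, and PAP TRAP overlapped its input. Cacna1e fell by 3.61 ± 0.27 in cortex TRAP (adjusted p = 8.7e-09), and its enrichment over input was 3.31 ± 0.35 higher in the synaptoneurosome layer than in whole tissue (adjusted p = 2.1e-06). Cacna1a had 47.4 ± 11.4 CPM in cortex input, 5.34 ± 2.18 in cortex TRAP, then 116 ± 35 in the synaptoneurosome input and 184 ± 51.8 in PAP TRAP. Its change in PAP TRAP against input, 0.66 ± 0.33, missed the threshold (adjusted p = 0.27). Cacna1b fell by 4.84 ± 0.48, from 50.9 ± 1.95 to 1.72 ± 1.23 CPM, and had 136 ± 43.4 CPM in the synaptoneurosome input and 101 ± 32.8 in PAP TRAP. The L-type gene Cacna1c fell by 4.40 ± 0.51 and had 111 ± 51.3 and 112 ± 55.9 CPM in the last pair of groups. Cacna1d, the other L-type gene, fell by 2.24 ± 0.41, the smallest of the 7 falls, with 17.5 ± 3.8, 3.71 ± 1.6, 28.7 ± 1.33 and 20.7 ± 0.118 CPM.

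Of the T-type genes, Cacna1g (ENSMUSG00000020866, chromosome 11, 94408391 to 94474198, minus strand) had 7.86, 7.18 and 5.69 CPM in cortex input, 34.9, 27.2 and 16.2 in the synaptoneurosome input and 25.9, 14.2 and 12.8 in PAP TRAP. In cortex TRAP it had 3, 2 and 2 counts, or 0.17, 0.17 and 0.12 CPM. Pooled over libraries, 343 counts in cortex input stood against 7 in cortex TRAP, a TMM-scaled ratio of 46 (exact binomial 95% interval 22.1 to 115, counting error only). That interval takes counts as independent, which counts from amplified cDNA are not, and leaves out the spread between libraries. It may therefore be too narrow. The fitted fall of 5.42 ± 0.59 was the largest of the 29, on counts that low. Cacna1i had 20.6 ± 4.86, 1.65 ± 0.797, 42.7 ± 4.44 and 68.5 ± 16.8 CPM and fell by 3.66 ± 0.39 in cortex TRAP. All its PAP TRAP libraries lay above its inputs, with a change of 0.68 ± 0.34 (adjusted p = 0.28).

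Cacna1h (ENSMUSG00000024112, chromosome 17, 25374285 to 25433783, minus strand) was the calcium channel gene whose change in cortex TRAP against input did not pass the test. It had 5.21, 6.32 and 5.87 CPM in cortex input, 2.10, 1.66 and 14.5 in cortex TRAP, then 3.95, 12.2 and 8.49 in the synaptoneurosome input and 23.3, 19.9 and 17.6 in PAP TRAP. Cortex TRAP library 3 stood above every input library and the other cortex TRAP libraries below them. The change against input was 0.08 ± 0.66 (adjusted p = 0.94), and without cortex TRAP library 3 it was -1.77 (adjusted p = 0.027). PAP TRAP was the highest group for Cacna1h and overlapped no other. Its change against cortex TRAP was 1.73 ± 0.67 (adjusted p = 0.054), and 3.56 without cortex TRAP library 3.

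Shaker-type potassium channel genes held an exception, Kcna2. Kcna1 and Kcna2 encode low-threshold delayed rectifiers of axons and their terminals, Kcna4 an inactivating channel of the same family, and Kcna6 a further delayed rectifier. Kcna2 (ENSMUSG00000040724, chromosome 3, 107101146 to 107115005, plus strand) had 67.6, 75.9 and 85.3 CPM in cortex input and 82, 98.1 and 52.8 in cortex TRAP. These groups overlapped, and the change was 0.02 ± 0.25 (95% interval -0.50 to 0.55, adjusted p = 0.95). In synaptoneurosome input Kcna2 had 246, 223 and 265 CPM, and in PAP TRAP 204, 179 and 189. Both synaptoneurosome-layer groups lay above both whole-tissue groups. Kcna2 rose by 1.68 ± 0.26 in synaptoneurosome input against cortex input (adjusted p = 0.00027) and by 1.30 ± 0.25 in PAP TRAP against cortex TRAP (adjusted p = 0.00057), the smallest rise of the 28. The difference between both enrichments was -0.39 ± 0.35 for Kcna2 (adjusted p = 0.5), the negative value among the 29.

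Kcna1 had 153, 132 and 182 CPM in cortex input, 13.8, 29.4 and 30.2 in cortex TRAP, then 208, 184 and 303 in the synaptoneurosome input and 126, 100 and 177 in PAP TRAP. Unlike Kcna2 it fell in cortex TRAP, by 2.67 ± 0.33 (adjusted p = 3.3e-06), with no overlap between groups. The difference between Kcna1 and Kcna2 in this fall was not tested. Kcna4 fell by 4.18 ± 0.67, from 13.6 ± 1.49 to 0.72 ± 0.576 CPM. Its cortex TRAP libraries held 12, 2 and 22 counts, and the fitted 95% interval of the fold was 6.91 to 47.6. Kcna6, whose exons overlap an antisense gene, fell by 1.23 ± 0.45 (adjusted p = 0.041), a call lost without any 1 of 4 libraries (cortex input 1 or 2, cortex TRAP 1 or 2, adjusted p 0.076 to 0.11).

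Among the Kcnb, Kcnc and Kcnd genes, all 6 fell in cortex TRAP (19.5% of all genes) and rose in PAP TRAP against cortex TRAP (19.3%). With the length correction the falls of Kcnc1 and Kcnd3 lost their calls, at -0.58 and -0.92 (adjusted p = 0.205 and 0.0799). Kcnb2 encodes a delayed rectifier of the soma and dendrites. Its levels were 44.7 ± 10.4, 4.9 ± 0.697, 106 ± 30.3 and 49.5 ± 22.7 CPM in both cortex groups (input, TRAP) and both synaptoneurosome-layer groups (input, TRAP). Kcnc1, Kcnc2 and Kcnc4 encode channels of the high-threshold family that allows fast spiking. Kcnc2 fell by 3.25 ± 0.45, from 46.5 ± 0.52 to 4.85 ± 3.8 CPM, Kcnc4 fell by 1.66 ± 0.45 and Kcnc1 fell by 1.38 ± 0.35. Kcnc1 held 90.6, 68.1 and 86 CPM in cortex input and 15, 40.6 and 38.6 in cortex TRAP, so its groups stood apart with a smaller gap than those of Kcnc2. Kcnd2 and Kcnd3, which carry the A-type current of dendrites, fell by 1.25 ± 0.31 and 1.64 ± 0.40. Kcnd2 reached 70.8 ± 7.3 CPM in synaptoneurosome input, and it rose there by 1.08 ± 0.30 against cortex input (adjusted p = 0.031), as did Kcnb2 by 1.25 ± 0.35 (adjusted p = 0.03). The Kcnd2 call was lost without any 1 of the 6 libraries compared (adjusted p 0.0534 to 0.141) and the Kcnb2 call without any cortex input or synaptoneurosome input 1 (0.0621 to 0.153), and both with the length correction.

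Kcnh1, Kcnh3 and Kcnh7 encode channels of the ether-a-go-go family. Kcnh7 (ENSMUSG00000059742, chromosome 2, 62693414 to 63184287, minus strand) had 314, 298 and 272 CPM in cortex input and 19.9, 23 and 22.2 in cortex TRAP. In synaptoneurosome input it had 641, 555 and 758 CPM, and in PAP TRAP 375, 206 and 275. PAP TRAP overlapped cortex input and stood apart from its own input. Kcnh7 fell by 3.76 ± 0.27 in cortex TRAP (adjusted p = 6.2e-09), rose by 1.15 ± 0.24 in synaptoneurosome input against cortex input (adjusted p = 0.0047), and fell by 1.19 ± 0.24 in PAP TRAP against its input (2.28-fold, 95% interval 1.60 to 3.24, adjusted p = 0.0093). That last call was at an adjusted p of 0.0501 after a correction for GC content. The Kcnh7 rise in synaptoneurosome input lost its call with the length correction, at 0.59 (adjusted p = 0.104, edgeR). Kcnh3 held 11, 13.4 and 21.7 CPM in cortex input, 1.08, 3.23 and 5.5 in cortex TRAP, then 20.7, 23.9 and 27.8 in the synaptoneurosome input and 62.8, 39.2 and 42.7 in PAP TRAP. PAP TRAP was its highest group with no overlap, though the change against input, 1.00 ± 0.45, missed the threshold (adjusted p = 0.22). Kcnh1 fell by 3.47 ± 0.48 in cortex TRAP, from 44.7 ± 7.69 to 4.03 ± 3.18 CPM, and had 74.5 ± 15.9 and 82 ± 17.4 CPM in the synaptoneurosome-layer groups.

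Kcnq3 and Kcnq5 encode subunits of the M-current, which restrains repeated firing, and Kcnma1 the large-conductance channel gated by calcium and voltage. Kcnq3 (ENSMUSG00000056258, chromosome 15, 65986387 to 66286642, minus strand) had 508, 551 and 490 CPM in cortex input and 137, 196 and 246 in cortex TRAP. It had 780, 728 and 709 CPM in the synaptoneurosome input and 583, 616 and 631 in PAP TRAP. None of the 4 groups overlapped another. Kcnq3 fell by 1.42 ± 0.23 in cortex TRAP (adjusted p = 6.5e-05) and rose by 1.66 ± 0.23 in PAP TRAP against cortex TRAP (adjusted p = 1.5e-05). With the length correction both calls ended and the rise turned, at -0.13 and -0.26 (adjusted p = 0.711 and 0.409). Kcnq5 fell by 3.09 ± 0.35 in cortex TRAP, and Kcnma1 fell by 2.41 ± 0.28. Both rose in synaptoneurosome input against cortex input, by 1.12 ± 0.33 and 1.26 ± 0.27. With the length correction both of these calls were lost, at 0.84 and 0.74 (adjusted p = 0.103 and 0.0729, edgeR). The Kcnq5 call was also lost without at least 1 library.

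Hcn2, a channel opened by hyperpolarization that carries a mixed cation current, had 5 to 51 counts per library outside PAP TRAP and 90 to 199 in PAP TRAP. Its levels were 2.83, 1.80 and 2.26 CPM in cortex input, 0.51, 0.41 and 1.08 in cortex TRAP, then 10, 8.06 and 2.32 in the synaptoneurosome input and 13.9, 7.44 and 15.5 in PAP TRAP. Its libraries of synaptoneurosome input spread widely, on 33, 27 and 12 counts. Hcn2 rose by 4.17 ± 0.75 in PAP TRAP against cortex TRAP (adjusted p = 0.00027), and its change of -1.76 ± 0.70 in cortex TRAP against input missed the threshold (adjusted p = 0.058).

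Per kilobase of exon (CPM per kb, n = 3), Kcnq3 was the most abundant of the 29 in 3 of 4 groups. In cortex input Kcnq3 had 35.1 ± 2.13 and Kcna1 32.5 ± 5.24, values whose libraries overlapped, followed by Kcnh7 with 19.4 ± 1.40. In cortex TRAP Kcnq3 had 13.1 ± 3.70, and Kcna2 came next with 6.52 ± 1.93 and then Kcna1 with 5.12 ± 1.93, libraries of this last pair overlapping. Scn8a had the highest mean in synaptoneurosome input, 57 ± 4.86, beside 50.3 ± 2.50 for Kcnq3 and 48.4 ± 13.2 for Kcna1, and the libraries of all 3 overlapped. In PAP TRAP Kcnq3 had 41.5 ± 1.68, above every library of Kcna1 (28.1 ± 8.19) and Scn8a (26.4 ± 7.23). The median of the 29 was 5.12 in cortex input, 0.679 in cortex TRAP, then 10.2 in the synaptoneurosome input and 8.38 in PAP TRAP.

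Other genes of the same pathways moved in both directions. Of 34 further pore-forming genes 22 were tested: 11 fell and 2 rose in cortex TRAP against its input, beside 19.5% and 15.9% of all genes. In PAP TRAP against cortex TRAP 14 of this list rose and 1 fell, beside 19.3% and 14.6% of all genes. The genes that rose in cortex TRAP were Kcnn2 and Kcnn3, which encode calcium-activated small-conductance channels, by 2.67 ± 0.36 and 1.47 ± 0.46 (adjusted p = 7.8e-06 and 0.018). Kcnn2 was also the gene of this list that rose in PAP TRAP against its input, by 1.25 ± 0.35 (adjusted p = 0.048), and the gene that fell in PAP TRAP against cortex TRAP, where it fell by 1.22 ± 0.34. Of the 22, 4 rose in synaptoneurosome input against cortex input and 0 fell, beside 7.26% and 2.07% of all genes.

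Auxiliary subunits set where channels sit and how they gate. For the counts below, 19.5% of all genes fell and 15.9% rose in cortex TRAP against its input, and 19.3% rose in PAP TRAP against cortex TRAP. Of 8 sodium channel partners, 5 fell in cortex TRAP, among them Scn3b by 3.41 ± 0.34, and 4 rose in PAP TRAP against cortex TRAP while Fgf11 fell by 1.56 ± 0.45. In synaptoneurosome input against cortex input Scn3b rose by 1.09 ± 0.31, but the intracellular partners Fgf12 and Fgf14 fell, by 1.02 ± 0.28 and 1.12 ± 0.31. Scn3b also fell by 1.43 ± 0.31 in PAP TRAP against its input (adjusted p = 0.013). Of 12 calcium channel partners tested, 7 fell in cortex TRAP and 8 rose in PAP TRAP against cortex TRAP. Cacnb3, a cytoplasmic beta subunit, rose in PAP TRAP against its input by 1.55 ± 0.30 (adjusted p = 0.0064), and Cacna2d1, an extracellular subunit, fell by 1.05 ± 0.27 (adjusted p = 0.034). Of 21 potassium channel partners tested, 16 fell and 2 rose (Kcnip3 by 1.5 ± 0.28, Kcng4 by 3.45 ± 0.88) in cortex TRAP, and Kcnv1 fell by 1.89 ± 0.42 in PAP TRAP against its input. Of the 5 glial potassium channels, 3 rose in cortex TRAP against its input, led by Kcnj10 by 3.73 ± 0.32 and Kcnj16 by 3.93 ± 0.46. Kcnj10 also rose by 2.66 ± 0.31 in synaptoneurosome input against cortex input, and its PAP TRAP change against input was 0.92 ± 0.29 (adjusted p = 0.074).

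Transcript length moved with the results. Channel genes are long: their median exon length was 9942 bases, beside 4593 over genes tested, and 20 of the 29 were among the longest 10% of genes by longest transcript (7045 bases or more). Over all genes of that class the median log2 change was -0.95 in cortex TRAP against its input and 1.17 in PAP TRAP against cortex TRAP, while in the shortest 10% (up to 1399 bases) it was 1.16 and -1.41. The same classes had medians of 0.15 and 0.06 in PAP TRAP against its own input. With counts corrected for length in each library, the median of the 29 was -2.05 in cortex TRAP against its input and 2.16 in PAP TRAP against cortex TRAP. By family, the 4 sodium genes and 7 calcium genes that fell in cortex TRAP kept their calls, with changes between -1.19 (Cacna1d) and -4.57 (Cacna1g). Kcna2 rose, by 1.31 (adjusted p = 0.00038), while Kcnq3 was at -0.13 (adjusted p = 0.71). After correction 24 rose in PAP TRAP against cortex TRAP, and Kcna2 and Kcnq3 turned to -0.60 and -0.26 (adjusted p = 0.069 and 0.41). Those that then rose in synaptoneurosome input against cortex input were 5 (Scn1a, Scn8a, Cacna1e, Cacna1g and Kcna2), with a median of 0.70, beside 6.26% of all genes. The interaction was then higher for 12 and lower for 1, Kcna2, at -1.78 (adjusted p = 0.0012), beside 9.75% and 7.35% of all genes. What made length move with the groups was not tested.

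**Figure D4:**
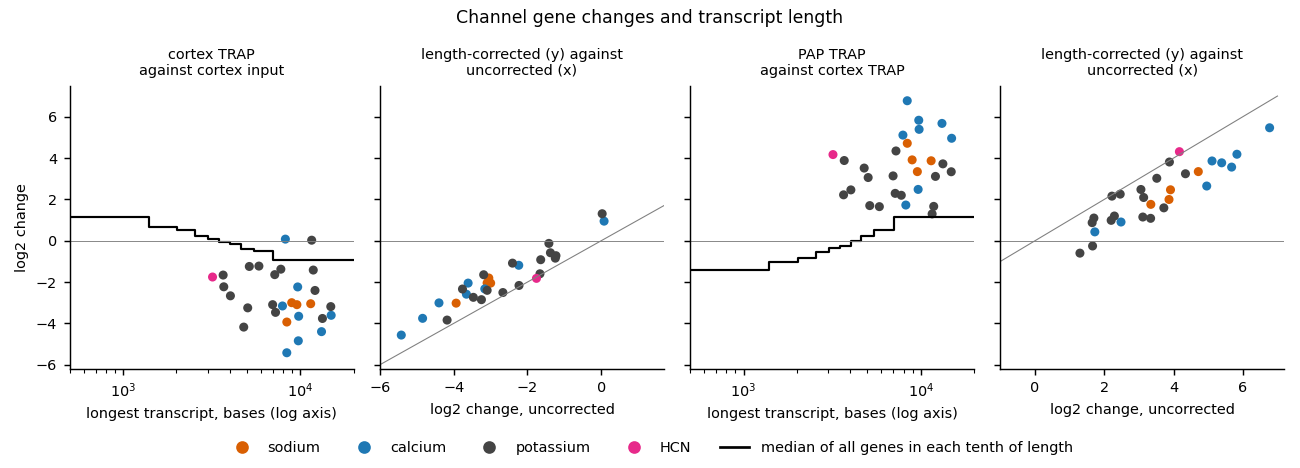
Panels of change by length plot log2 change (y axis) against the length of the longest transcript (x axis, log scale) for the channel genes (points) beside the median of all genes in 10 classes of length (black steps). The other panels plot the length-corrected change (y axis) against the uncorrected one (x axis), with the line of equal values in grey: most genes move toward 0 and keep their sign.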

How the data were processed

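RNA was sequenced from 12 libraries. The authors deposited 1 raw count per gene and library: values are whole and their totals differ between libraries. The tools named in the submitters' processing notes, with no role or order, are Trimmomatic 0.32, STAR, HTSeq and Bowtie2. No source used here gives the genome build, annotation or strand setting. Per the labels' protocols, cDNA from 2 ng of RNA was amplified by SPIA (no molecular identifiers), so counts are not independent molecules. Rows naming no gene held 20.3% to 55.5% of counts and stayed out of all fits.

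Of 41388 identifiers, 40254 had a symbol in the table of names and 40340 a position in GENCODE M21. Genes passing edgeR's filterByExpr (minimum count 10, minimum total 15) were fitted with TMM scaling and 1 mean per group over all 12 libraries (edgeR 4.0.16, R 4.3.3). P-values of the quasi-likelihood F test were adjusted over all 13364 genes (Benjamini-Hochberg) and called at 0.05. Log2 changes are given ± SE and levels as normalized CPM with SD (n = 3). Every channel gene was described whatever its test, and of each other list up to 2 genes per direction and comparison were named by smallest adjusted p, with their values in other comparisons where useful. The members and lists were chosen with earlier results of these data known. Alternatives were RLE scaling, no filter, DESeq2 1.42.0, a replicate block, fits with only the groups in question, no mitochondrial genes, nuclear counts thinned to 1423296 per library, loess offsets (span 0.3) for GC or for transcript length, and leaving out each library. Same-numbered libraries deviated together only weakly: their correlations were 0.006 to 0.080, all positive, beside -0.070 to 0.055 for libraries of different numbers. Numbers were not taken as pairs in the main fit. Some named items of the lists are not reported here.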

Additional observations from a re-analysis of the deposited data

Results flagged for a closer look

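The enrichment over input differed between the synaptoneurosome layer and whole tissue for 20 channel genes by the interaction test of edgeR (adjusted p under 0.05). In each, PAP TRAP over its input was higher than cortex TRAP over its input. A positive difference does not mean a rise over input in PAP TRAP. Against that input 0 of the 29 channel genes rose and 2 fell (3% and 1.53% of all genes), with a median of -0.43. In cortex TRAP against its input 26 of the 29 fell (19.5% of all genes), with a median of -3.05. Among sodium channel genes the log2 difference was 3.17 for Scn1a, 2.54 for Scn2a and 1.94 for Scn8a. Among calcium channel genes it was 3.82 for Cacna1a, 4.41 for Cacna1b, 4.42 for Cacna1c, 1.77 for Cacna1d, 3.31 for Cacna1e, 4.86 for Cacna1g and 4.34 for Cacna1i. Among potassium channel genes it was 1.88 for Kcna1, 2.68 for Kcna4, 2.09 for Kcnb2, 2.10 for Kcnc2, 3.605 for Kcnh1, 3.23 for Kcnh3, 2.57 for Kcnh7, 1.14 for Kcnq3, 2.01 for Kcnq5 and 1.85 for Kcnma1. Beside these, 11 of 14 neuron markers were called in the same direction (median 2.72), and all 15 astrocyte markers in the opposite one (median -3.14). Over all genes the shares called in these directions were 12.9% and 7.32%. With the length correction 8 of the 20 lost the call: Scn8a (0.56), Cacna1d (0.62), Kcna4 (2.32), Kcnb2 (0.43), Kcnc2 (1.696), Kcnq3 (-0.26), Kcnq5 (1.25) and Kcnma1 (0.41). Those of Cacna1d, Kcna4 and Kcnc2 were also lost without single libraries. The part of other cell types in these differences was not tested, and brain region cannot be told apart from fraction in them.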

How the results depend on the processing

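With transcript length corrected, 1 channel gene rose in cortex TRAP against its input, 5 rose in synaptoneurosome input against cortex input, and the interaction was higher for 12 and lower for 1. Kcna2 and Kcnq3 turned to -0.60 and -0.26 in PAP TRAP against cortex TRAP, and Kcnq3 to -0.26 in the interaction. In PAP TRAP against its input, channel genes called lower numbered 5 with DESeq2, 5 with the compared groups alone, 4 with thinned counts and 1 with the GC correction, and all genes called numbered 1349 with DESeq2 and 403 with the GC correction beside 605. In synaptoneurosome input against cortex input all genes called numbered 2091 with DESeq2 and 2251 with the groups alone beside 1246, and channel genes 22 with the groups alone. The cause of these shifts was not tested.

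Same-numbered libraries were not shown to be pairs. With the replicate number as a block, 4 channel genes fell in PAP TRAP against its input, Kcna6 missed the threshold in cortex TRAP (adjusted p = 0.053, edgeR), and Cacna1h was at -0.26 there.

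Changes near 0 turned sign. In cortex TRAP against its input, Cacna1h was at -0.010 with thinned counts and -0.10 with the GC correction, and Kcna2 at -0.0074 with the groups alone. In PAP TRAP against its input, Cacna1c was at -0.016 with RLE scaling, -0.014 with DESeq2, -0.065 thinned, -0.014 with the GC correction and -0.15 with the length correction. Kcnc4 was at -0.029 with RLE scaling, -0.027 with DESeq2, -0.0016 with the groups alone, -0.18 thinned and -0.41 with the GC correction. Without mitochondrial genes Kcnc1 was at 0.016 and Kcnd3 at 0.072.

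Leaving out each library in turn, all genes called in PAP TRAP against its input ranged from 292 to 740 and channel genes called lower from 1 to 5. In synaptoneurosome input against cortex input all genes called ranged from 608 to 1393 and channel genes from 6 to 17. Cacna1h ranged from -1.77 to 0.39 and Kcna2 from -0.32 to 0.087 in cortex TRAP against its input. In PAP TRAP against its input the ranges were -0.39 to 0.44 for Cacna1c, -0.30 to 0.24 for Kcnc1, -0.21 to 0.22 for Kcnc4, -0.25 to 0.092 for Kcnd3 and -0.036 to 0.27 for Kcnh1. The synaptoneurosome inputs had the fewest nuclear counts.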
